A study of Mus musculus with 6 samples.

Results

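The complement system was examined in glomerular endothelial cells (GEC) of normal and diabetic mice through 9 genes chosen by symbol. They were the early-step inhibitors Cd55, Cd46, Cr1l and Serping1, the terminal-step inhibitors Cd59a and Clu, and the components C3, Cfb and Cfp. For each gene the probeset annotated with that gene alone and with the highest mean was taken. This gave 8 of the 19938 genes that had a probeset of their own, with 1 probeset each, all of which passed the filter on low values (a linear signal of 100 or above in no fewer than 3 arrays), out of 20661 probesets that passed it. No probeset in the annotation used here was listed for C3 alone, so C3 was not analysed here. The study sorted GFP positive cells from sieved glomeruli of mice with the genotypes Tie2-GFP/ +/+ (normal) and Tie2-GFP/ DB/DB (diabetic, here db/db), and all were 7 months old. The GFP transgene, which both groups carried, is driven by Tie2, a gene of endothelium that is also active in some cells of the blood lineage. The db/db mice carry a loss-of-function mutation of the leptin receptor gene in every cell. Obesity, diabetes and the mutation itself thus come together in this comparison. There were 3 samples per group, each a labelled biological replicate on 1 whole-transcript array, and whether a sample held 1 mouse or several was not stated.

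Complement is a cascade of plasma proteins that is set off by antibody, by sugars on microbes or, in the alternative pathway, by slow spontaneous turnover of C3. All routes form C3 convertases, enzymes that cut C3, and may end with the membrane attack complex, a pore in the cell surface. Endothelium is in constant contact with these proteins and carries inhibitors against them, some at the early convertase step and some at the final pore.

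The signal was of the labelled cell type. All 8 endothelial markers passed the filter, among them Emcn and Kdr, and their summed linear signal ran from 55862 to 56759 in normal and from 55487 to 57341 in db/db arrays. Of 9 measured leukocyte markers 6 lay below the filter, including Ptprc, Adgre1, Csf1r and Itgam, and the summed signal was 985 to 1658 in normal and 967 to 1176 in db/db arrays. Cd68, a lysosomal protein of macrophages, was higher in each db/db array (6.91 to 7.95 on the log2 scale, against 6.63 to 6.81). Cd14, a receptor of monocytes for bacterial lipopolysaccharide, was lower in each (8.30 to 8.38, against 8.43 to 9.97, a log2 change of -0.71), and over the 9 markers 5 had the higher mean in db/db. Cd14 was the largest term of the leukocyte sum, with a linear signal at its mean log2 of 524 in normal and 321 in db/db. Its 9.97 was in normal replicate 2, the array with the sum of 1658. The sum therefore does not show the direction of the other leukocyte markers. Of the other lists, the podocyte sum ran from 4397 to 5258 in normal and from 3962 to 4055 in db/db arrays, mostly through Podxl, which endothelium also makes. The mesangial sum ran from 790 to 990 and from 964 to 1105, the tubule sum from 856 to 990 and from 1003 to 1031, and the sum of the platelet and erythroid genes Ppbp, Pf4 and Alas2 from 669 to 996 and from 369 to 688. Normal replicate 2 stood apart from the other arrays on the first principal component (30.5% of the variance). Without it the log2 changes were 2.43 for Cd55, -0.54 for Cd59a, -0.63 for Cd46, 0.10 for Cr1l, 1.16 for Serping1, 0.40 for Clu, 0.48 for Cfb and 0.02 for Cfp.

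Cd55 was the complement gene with the largest difference. Cd55 (decay accelerating factor) is a protein anchored at the cell surface that takes C3 convertases apart. Its log2 signal was 8.13, 8.09 and 8.52 in normal replicates 1 to 3, and 11.36, 10.16 and 10.72 in db/db replicates 1 to 3. Every db/db array lay above every normal array, by 1.64 or more.

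**Figure D1:**
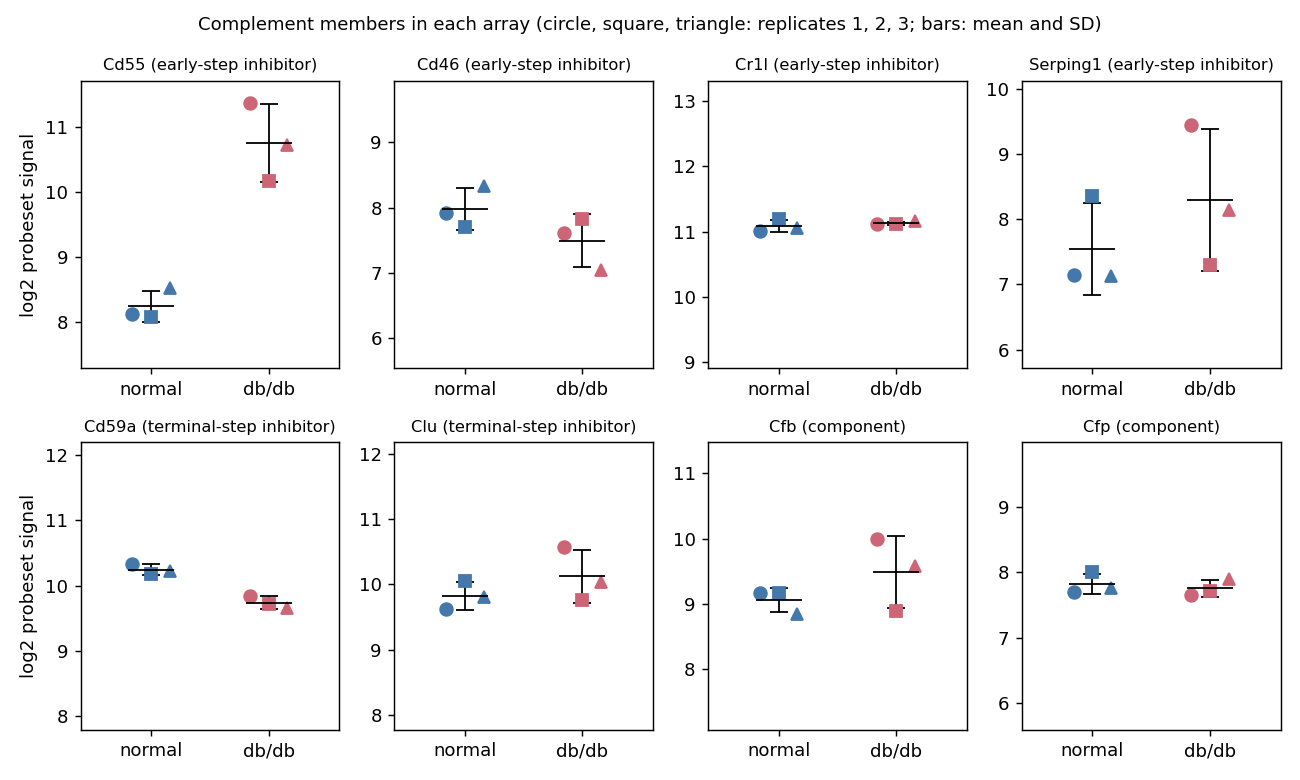
Log2 probeset signal (y axis, 4.4 log2 units in each panel) of 8 complement genes in normal (blue) and db/db (red) arrays, with replicates 1, 2 and 3 as circle, square and triangle and the mean and SD of 3 arrays as bars. The groups are apart for Cd55, which is higher in db/db, and for Cd59a, which is lower, and overlap for the other genes.

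The means of Cd55 were 8.24 ± 0.24 in normal and 10.75 ± 0.60 in db/db (log2, SD, n = 3 per group), a 5.68-fold difference with a 95% confidence interval from 3.28 to 9.82. In limma's test across all probesets Cd55 ranked 21 of 20661 by p, and it did not pass after Benjamini-Hochberg adjustment (adjusted p = 0.282). No probeset did: 0 of 20661 were called (0%), with a smallest adjusted p of 0.203. Without adjustment 1320 probesets had a limma p under 0.05 (6.39%), and 2 of the 8 complement genes were among them, Cd55 and Cd59a. Groups that did not overlap were found for 12.3% of all probesets, 7.01% with the db/db arrays above and 5.31% with them below. Among the complement genes there was 1 of each kind, again Cd55 and Cd59a. The db/db mean was the higher for 5 of the 8 genes and for 53.9% of all probesets. The median log2 change was 0.17 over the 8 genes and 0.01 over all probesets.

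Mice have a second decay accelerating factor gene, Cd55b, next to Cd55 on chromosome 1, and its expression is known mainly from the testis. Its probeset lay between 4.65 and 5.11 in all 6 arrays, below the filter of 6.64 on this scale, with means of 4.88 in normal and 4.97 in db/db. With values this low, the probeset cannot show whether Cd55b differed between the groups as Cd55 did. The pair is shown here by the 250 bases upstream of each annotated start, because these windows share part of their sequence. Only the probeset of Cd55 lay above the filter, and whether the windows bear on the signals was not tested. Both are from RefSeq (GRCm38.p6, minus strand, 5′ to 3′), at chr1:130462745-130462994 for Cd55 and chr1:130423044-130423293 for Cd55b. Capitals mark the bases that lie in a match of 12 or more bases with the other window, and matches that overlap run on as 1 block.
Cd55: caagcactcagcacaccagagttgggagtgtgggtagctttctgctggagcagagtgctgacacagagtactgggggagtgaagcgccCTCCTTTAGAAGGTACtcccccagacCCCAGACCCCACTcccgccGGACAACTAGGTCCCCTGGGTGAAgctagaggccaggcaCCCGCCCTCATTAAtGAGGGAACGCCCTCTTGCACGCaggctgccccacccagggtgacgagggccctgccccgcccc
Cd55b: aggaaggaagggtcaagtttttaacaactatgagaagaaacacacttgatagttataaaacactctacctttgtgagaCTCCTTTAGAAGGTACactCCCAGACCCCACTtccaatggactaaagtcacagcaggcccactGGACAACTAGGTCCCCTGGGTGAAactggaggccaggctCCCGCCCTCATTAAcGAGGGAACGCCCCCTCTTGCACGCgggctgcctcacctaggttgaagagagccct
The blocks covered 89 of 250 bases in Cd55 and 91 in Cd55b, and the longest match was of 24 bases. The block nearest the start joins overlapping matches and differs in length between the windows, whereas the other blocks are the same in both. The Cd55 window was 64.0% G and C and that of Cd55b 51.6%. The letters GGGCGG (a GC box, either strand), which 33.0% of 32536 distinct RefSeq windows of this length hold, occurred 2 times in Cd55 and 1 time in Cd55b, with 1 in each falling inside a block. The letters TATAAA (12.3% of windows) and CCAAT (33.8%) each occurred 1 time in Cd55b and 0 times in Cd55. These are matches of letters, and no binding was measured.

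No other early-step inhibitor had groups that were apart. Cr1l (Crry), the membrane protein that serves as the general inhibitor of C3 convertases on mouse cells, was level across the arrays. It read 11.002, 11.189 and 11.059 in normal and 11.124, 11.111 and 11.156 in db/db replicates 1 to 3. Its log2 change was 0.05 ± 0.08 (SE), with a 95% interval from -0.16 to 0.26, so that a change of the size seen in Cd55 lay outside what these arrays allow for Cr1l. The arrays spread widely for the next early-step gene. Cd46, a cofactor for the cleavage of C3b that in mice is found chiefly on sperm, read 7.92, 7.70 and 8.33 in normal and 7.61, 7.83 and 7.05 in db/db arrays. The groups overlapped through db/db replicate 2, and the change of -0.49 ± 0.26 did not pass (limma adjusted p = 0.825).

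Serping1 encodes the C1 inhibitor, a secreted protein that stops the first enzymes of the classical and lectin pathways. It read 7.14, 8.36 and 7.12 in normal and 9.44, 7.29 and 8.13 in db/db arrays. Normal replicate 2 lay above 2 of the 3 db/db arrays, and the interval of the change, from -0.81 to 2.31, was the widest of the 8 genes. The residual SD of Serping1 was 0.92, against a median of 0.18 over all probesets. Its log2 change of 0.75 came to 0.17 without db/db replicate 1, to 1.16 without normal replicate 2 and to 1.25 without db/db replicate 2, so that single arrays set its size.

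Of the inhibitors of the terminal step, Cd59a was lower in db/db GEC. Cd59a is a small membrane-anchored protein that blocks the last step of pore assembly. It read 10.33, 10.17 and 10.23 in normal and 9.85, 9.71 and 9.66 in db/db replicates 1 to 3, so that the lowest normal array was above the highest db/db array by 0.33. The means were 10.24 ± 0.08 and 9.74 ± 0.10 (log2, SD, n = 3 per group). Normal over db/db was 1.42-fold, and the log2 change of -0.51 ± 0.09 (SE) had a 95% interval from -0.73 to -0.28. Cd59a ranked 92 of 20661 by p and did not pass over all probesets (limma adjusted p = 0.404). In bulk samples such as these, fewer cells with the transcript and less of it in each cell cannot be told apart. Among endothelial markers Tek, the gene whose promoter drives the GFP, was also lower (12.55 to 12.77 in normal, 12.18 to 12.48 in db/db), and Cdh5 was higher (12.78 to 12.90 and 13.03 to 13.10), and their part in the value of Cd59a was not tested. The paralog Cd59b, beside Cd59a on chromosome 2, lay between 4.52 and 5.37 in all arrays, below the filter.

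Clu encodes clusterin, a secreted chaperone that among other roles binds the forming pore and keeps it from the membrane. Its log2 signal was 9.62, 10.05 and 9.81 in normal and 10.57, 9.76 and 10.03 in db/db arrays. Only db/db replicate 1 lay outside the normal range, and the change of 0.29 ± 0.23 (95% interval -0.29 to 0.87) did not pass (limma adjusted p = 0.881). Without that array the change was 0.07. The terminal-step inhibitors thus had means that differed in sign, lower for Cd59a and higher for Clu.

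**Figure D2:**
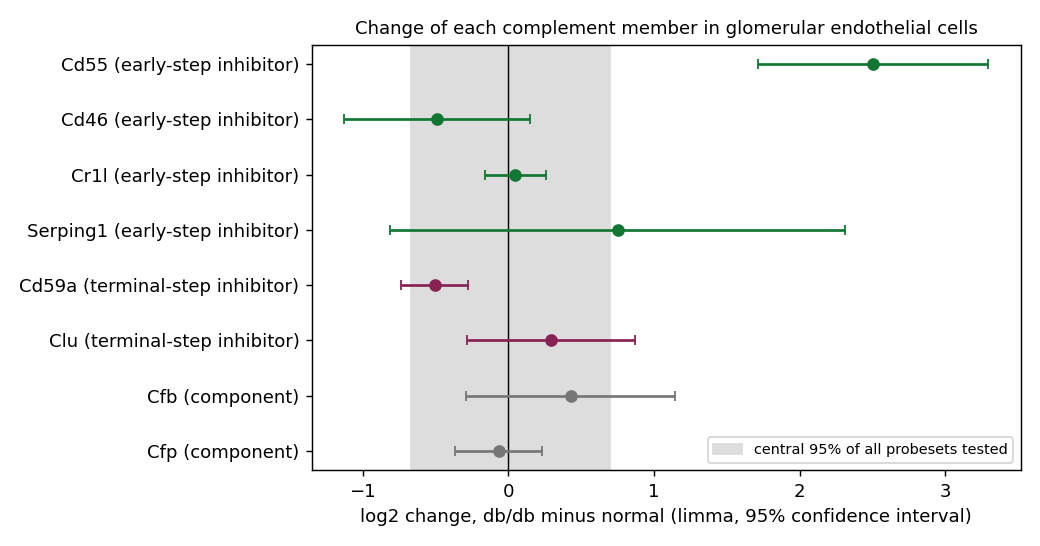
Log2 change, db/db minus normal, of 8 complement genes (points) with limma's 95% confidence interval (lines), coloured by role, over the range that held the central 95% of all probesets tested (grey band, -0.67 to 0.69). Cd55 lies far to the right of the band with its whole interval, Cd59a lies inside the band with an interval below 0, and the intervals of the other 6 genes include 0.

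Early-step and terminal-step inhibitors were set against each other in each array, as the mean deviation of each group from its mean in normal arrays. For the 4 early-step genes this mean was -0.17, 0.12 and 0.04 in normal and 1.17, 0.38 and 0.55 in db/db replicates 1 to 3. For the terminal-step pair it was -0.06, 0.08 and -0.02 in normal and 0.17, -0.30 and -0.19 in db/db. The early-step mean was thus above the terminal-step mean in each db/db array, by 1.0, 0.68 and 0.74, whereas in normal arrays the difference lay between -0.11 and 0.06. Between groups this difference was 0.81 (SD 0.09 in normal and 0.17 in db/db). Most of it came from Cd55. Without Cd55 the early-step mean was 0.52, -0.13 and -0.09 in the db/db arrays and -0.18, 0.21 and -0.03 in the normal arrays, which overlap. The difference between Cd55 and Cd59a alone was 3.52, 2.45 and 3.06 in db/db replicates 1 to 3, and between -0.21 and 0.29 in normal arrays. The genes were grouped with their values known, so these differences carry no test.

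**Figure D3:**
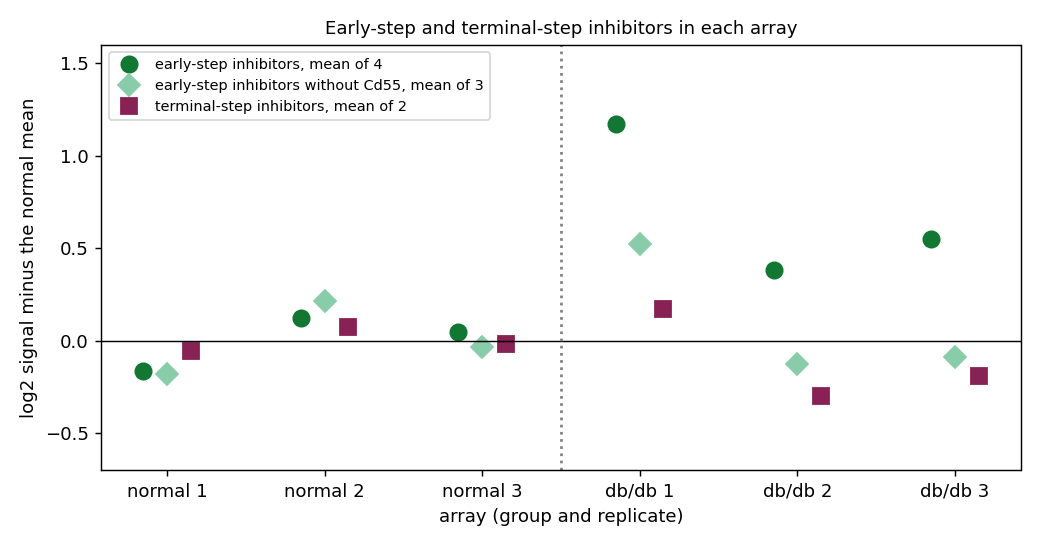
Mean log2 deviation from the normal mean (y axis) in each of the 6 arrays (x axis) for the 4 early-step inhibitors (dark green), the same without Cd55 (light green) and the terminal-step pair Cd59a and Clu (purple). In the db/db arrays the dark green points lie between 0.38 and 1.17, above the purple points, and without Cd55 only db/db replicate 1 stays above the normal arrays.

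The components of the alternative pathway did not pass. Cfb encodes factor B, the protease subunit of the alternative C3 convertase. It read 9.16, 9.16 and 8.85 in normal and 9.99, 8.89 and 9.57 in db/db arrays, so that 2 db/db arrays lay above the normal range and replicate 2 within it. The change was 0.43 ± 0.29, with a 95% interval from -0.29 to 1.14 (limma adjusted p = 0.864). It was 0.72 without db/db replicate 2 and 0.17 without db/db replicate 1. Cfp encodes properdin, which stabilises that convertase and is made mainly by leukocytes. Its signal stayed between 7.65 and 8.0 in all 6 arrays, and the change of -0.07 ± 0.12 did not pass (limma adjusted p = 0.955).

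The db/db arrays differed among themselves in a like order for several of these genes. Cd55, Serping1, Clu and Cfb were each highest in replicate 1, next in replicate 3 and lowest in replicate 2, which makes 4 of 8 complement genes, against 19.5% of all probesets with that order. The spread between db/db replicates 1 and 2 was 1.20 for Cd55, 2.15 for Serping1, 0.80 for Clu and 1.10 for Cfb. Replicate 1 was also the db/db array with the highest C1qa (8.27, against 7.08 and 7.09), Cd68 (7.95, against 7.59 and 6.91) and Lyz2 (7.41, against 6.82 and 6.61), genes of macrophages. Of the 9 measured leukocyte markers 5 were highest in replicate 1 among the db/db arrays, while Cd14 (8.30, against 8.38 and 8.31) and Csf1r (6.19, against 6.23 and 6.32) were lowest there, and the summed signal of the list was 1176, 1028 and 967 in replicates 1 to 3. The part of these in the 4 genes was not tested. Without replicate 1 the change of Cd55 was 2.2 and that of Cd59a -0.56.

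The rest of the complement system was mostly near the lower end of the signal. Of 47 further genes on a list of the pathway 3 had no probeset of their own, 31 lay below the filter and 13 were tested. Of these 13 genes 2 had an unadjusted limma p under 0.05 with a higher mean in db/db and 1 with a lower mean, where 3.48% and 2.91% of all probesets did, and 0 passed after adjustment. Their median log2 change was 0.05. Of the recognition and initiation genes 7 of 18 were tested and 0 had such a p. C1qa, a chain of the C1q recognition molecule, had a change of 0.44 ± 0.35 that rested on db/db replicate 1, C1qc had 0.14 and the protease gene C1ra had 0.04. Of the genes of the membrane attack complex 6 of 7 lay below the filter, C8b among them at 6.37 to 6.44, and C8g had a change of 0.04.

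The further genes with such a p were receptors and a membrane regulator. Cd93, a transmembrane protein of endothelium first described as a C1q receptor, read 9.26, 10.05 and 9.78 in normal and 11.35, 10.54 and 10.85 in db/db arrays. All db/db arrays were above all normal ones, with a change of 1.22 ± 0.29 (limma adjusted p = 0.568), and the order among db/db replicates was that of Cd55. C3ar1, the receptor for the C3a fragment, read 6.22, 6.88 and 8.09 in normal and 8.96, 8.26 and 8.08 in db/db arrays, where normal replicate 3 lay above db/db replicate 3. Its change was 1.37 ± 0.52 (limma adjusted p = 0.754). Thbd encodes thrombomodulin, which speeds both the activation of protein C and the inactivation of C3b by factor I, and it read 11.14, 10.93 and 10.94 in normal and 10.52, 10.59 and 10.41 in db/db arrays. Its change of -0.50 ± 0.10 (limma adjusted p = 0.507) was of the size of that of Cd59a. C1qbp, a C1q binding protein found mainly in mitochondria, had 0.17 ± 0.15. Thus in the membrane regulator list 5 of 11 genes were measured above the filter, with Cd55 higher, Cd59a and Thbd lower at an unadjusted limma p under 0.05, and Cd46 and Cr1l without one.

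**Figure D4:**
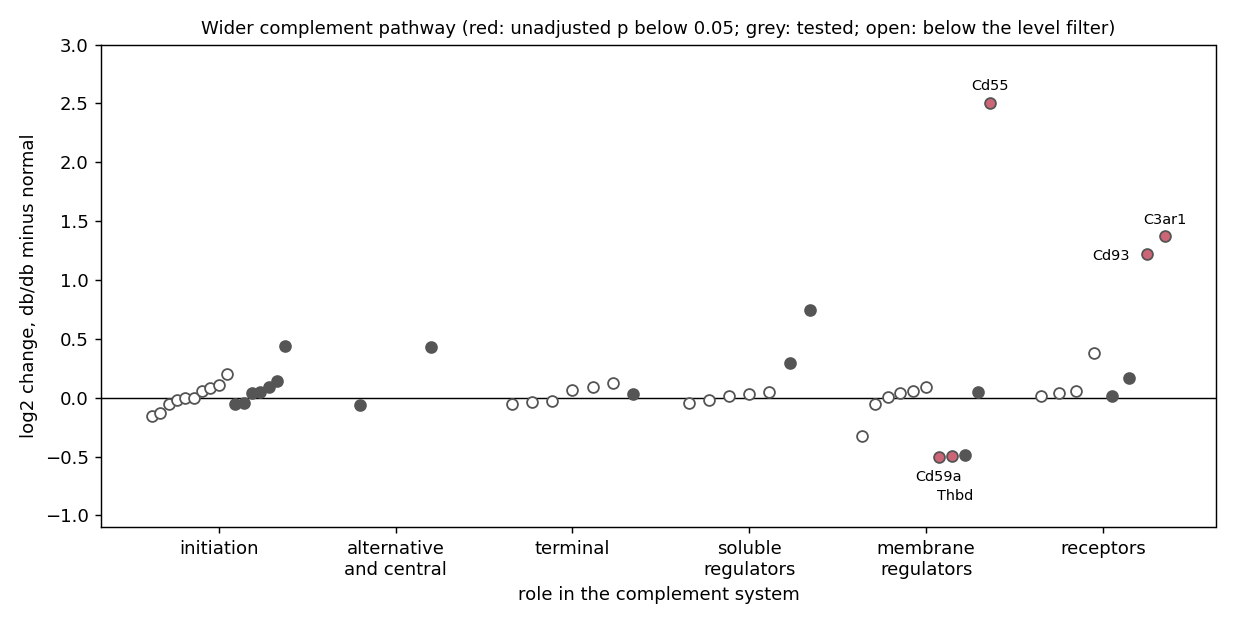
Log2 change, db/db minus normal (y axis), of the complement genes with a probeset of their own, by role (x axis), with genes below the filter as open points, tested genes in grey and those with an unadjusted limma p under 0.05 in red. Cd55 at 2.51, C3ar1 at 1.37 and Cd93 at 1.22 lie above the rest, and Cd59a and Thbd lie near -0.50.

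The genes whose signal most resembled that of Cd55 were sought over the 6 arrays. Of 12762 other genes past the filter the 5 with the highest Pearson r were Icam1 (0.997), Utrn (0.991), Vcam1 (0.987), Sele (0.986) and Mir15a (0.986). Icam1, Vcam1 and Sele encode receptors by which leukocytes hold on to endothelium, and Utrn encodes utrophin, a protein of the cell cortex. Mir15a read 6.59, 6.43 and 6.47 in normal, below the filter of 6.64, and 7.88, 7.22 and 7.57 in db/db arrays. It entered the search only through the db/db arrays, where Cd55 was also high, so its r carries no weight. Icam1 read 8.19, 8.22 and 8.36 in normal and 9.32, 8.89 and 9.19 in db/db replicates 1 to 3, the same order among db/db arrays as for Cd55. For Cd59a the 5 genes were Ly6e (0.992), Dctn1 (0.991), Calcrl (0.989), Cmtm6 (0.982) and Nit2 (0.980). Ly6e is, like Cd59a, a small protein of the Ly6 family with a membrane anchor, and read 13.07, 13.04 and 13.04 in normal and 12.86, 12.83 and 12.80 in db/db arrays. Each r spans both groups, so it describes the difference between groups together with the spread within them, and 6 arrays are few for it.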

How the data were processed

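GEC RNA was amplified (NuGEN WT-Pico) and hybridised to Affymetrix Mouse Gene 1.0 ST arrays, 1 per sample. The authors deposited log2 probeset signal for 6 arrays. The study's text states RMA in GeneSpring, and the submitters' processing notes name MAS5 alone. Values ran from 3.18 to 14.46 with array medians from 7.00 to 7.04, as after a normalisation that removes differences in total signal, so changes are relative to the other probesets. No further normalisation was applied. Of 35557 probesets 21789 had a single gene symbol (platform annotation, symbols updated through RefSeq gene IDs), and 20661 reached a linear signal of 100 in no fewer than 3 arrays.

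Samples were grouped by their labels, and the comparison used limma 3.58.1 (R 4.3.3; lmFit, eBayes), db/db minus normal, two-sided, Benjamini-Hochberg over all 20661 probesets, threshold 0.05, with no block. Intervals are limma's, unadjusted, and ± beside a change is the moderated SE. An exact permutation test of 3 against 3 cannot give p below 0.1, so none was used. The number of arrays limits the precision. Each p-value sets the difference between groups against the spread among these samples, whatever number of mice each sample held. The fit was tested on simulated data. The members and gene lists were chosen with earlier results of these data known. Named were all members, the 2 genes with the smallest p and the 2 with the highest mean of each role and marker list, the paralogs, and the 5 genes most like Cd55 and Cd59a. Some markers picked by this rule are given only here, with their log2 changes. They were Cd3e (-0.11) for leukocytes, Synpo (0.24) for podocytes, and Meis1 (0.29) and Acta2 (0.09) for mesangial cells. For tubules they were Umod (0.31), Slc12a3 (0.19), Aqp2 (0.16) and Slc34a1 (0.03). Umod read 6.63, 6.50 and 6.24 in normal arrays, below the filter of 6.64, and 6.87, 6.68 and 6.73 in db/db arrays. It passed the filter only through the db/db arrays, so its change carries no weight. Lyz2, C4bp and the other named genes below the filter that are no paralogs were chosen after their values were seen. Neighbours were taken among protein-coding genes. Figures used matplotlib 3.10.9 (Python 3.11.15). Alternatives were 2 scalings, 2 level filters, 2 variance priors, array weights, a replicate block, the methods' t-test, 3 choices of probesets and leaving out each array.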

Additional observations from a re-analysis of the deposited data

How the results depend on the processing

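Under 18 alternatives, 6 of which left out 1 array each, none of the 8 complement genes passed after adjustment, with adjusted p between 0.115 and 0.727 for Cd55 and between 0.296 and 0.885 for Cd59a. Both kept their direction and an unadjusted p under 0.05 in all 18, the test named in the methods included, which put 1280 probesets under 0.05 before adjustment and 0 after. Leaving out 1 array gave log2 changes from 2.2 to 2.80 for Cd55, from -0.56 to -0.46 for Cd59a, from -0.65 to -0.26 for Cd46, from 0.01 to 0.10 for Cr1l, from 0.17 to 1.25 for Serping1, from 0.07 to 0.47 for Clu, from 0.17 to 0.72 for Cfb and from -0.14 to 0.02 for Cfp, which turned to 0.022 without normal replicate 2, and the cause was not tested. The count of complement genes at an unadjusted limma p under 0.05 was 2, or 3 without db/db replicate 2, when Cfb joined them. Probesets that passed after adjustment numbered 0, except 1 with 1 probeset per gene and 2 with the mean of a gene's probesets, where fewer features were tested (12763 and 12673). The difference between early-step and terminal-step inhibitors lay between 0.71 and 0.87 when 1 array was left out. The labels number the replicates but do not pair them, and the deviations of same-numbered arrays correlated at -0.0296 to 0.0353. With the replicate block the change of Cd55 stayed at 2.51 and that of Cd59a at -0.51 (limma adjusted p = 0.530 and 0.689), 0 probesets passed, and the early-step against terminal-step difference was 0.81. With 3 arrays per group, Serping1, Cfb, Clu and Cd46 have intervals that include both no change and changes of the size of that of Cd59a. For Cfb and Clu that size is reached only upward, as both intervals start at -0.29. For Cd46 it is reached only downward (-1.13 to 0.15).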

Other observations

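The genes beside Cd55 and Cd59a were set beside them. Of the 10 protein-coding genes nearest to Cd55, 5 on either side, 5 were tested, and their log2 changes lay between 0.02 and 0.60, with Cxcr4 highest (limma adjusted p = 0.783), and 0 had an unadjusted limma p under 0.05. C4bp, a gene of a soluble convertase inhibitor in the same cluster, lay between 5.49 and 5.71, below the filter. Of the 10 nearest to Cd59a 6 were tested, with log2 changes between -0.30 and 0.13. Fbxo3, a ubiquitin ligase subunit, was the 1 gene of these with an unadjusted limma p under 0.05, which 6.39% of all probesets had. Fbxo3 read 9.38, 9.32 and 9.60 in normal and 9.20, 9.22 and 8.97 in db/db replicates 1 to 3 (limma adjusted p = 0.774), below every normal array in each db/db array. Caprin1 had groups apart in the other direction, with 12.03 to 12.11 in normal and 12.13 to 12.26 in db/db arrays. Groups were apart for 12.3% of all probesets. The adjacent Cd59b, below the filter, had means of 4.97 in normal and 4.65 in db/db.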
